A study of Oryza sativa Indica Group with 2 samples.

Results

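Strigolactones are carotenoid-derived hormones that hold back the outgrowth of side shoots, which in rice are called tillers. The genes described here are 5 genes of that pathway, chosen by their identifiers and covered by 6 entries of the 35677 in the deposited gene table. They are the synthesis genes D17 (OS04G0550600) and D10 (OS01G0746400), the receptor gene D14 (OS03G0203200), the F-box gene D3 (OS06G0154200) and the signalling repressor gene D53, which has 2 entries (OS11G0104300 and OS11G0104350). All of them carry a name or description in the table that fits the pathway, and rice plants lacking the function of D17, D10, D14 or D3 are known as high-tillering dwarfs.

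RNA came from seedlings of Indica rice at the tillering stage, of a transgenic line that overexpresses the transcription factor OsGRF7 (GRF7OE, line GRF7OE-1) and of wild-type plants (WT). Each group was 1 library, with 17021467 reads assigned to genes in GRF7OE and 16824988 in WT, and both groups were grown in the summer in Wuhan. The labels name a single transgenic line, and the sources used here give neither the promoter of the transgene nor the number of plants per library. No difference has a replicate check, so no test of the conditions was possible. Levels are the authors' FPKM, a measure scaled to transcript length and library size, whose ratios can differ from those of the read counts. Ratios are GRF7OE over WT, and brackets hold a 95% exact interval that covers counting error only.

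In the pathway, a carotene isomerase and the dioxygenases D17 and D10 make carlactone in the plastid, and cytochrome P450s of the MAX1 type turn it into strigolactones. D14 binds and cleaves the hormone, then joins D3, the substrate-binding subunit of an SCF ubiquitin ligase. The complex marks D53 for degradation, and D53 otherwise represses its targets with TOPLESS-type corepressors. SPL14, a transcription factor known for limiting tiller number, is one protein that D53 binds in rice.

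The receptor, its F-box partner and the synthesis gene D17 had lower levels in GRF7OE than in WT, and both entries of the repressor D53 had higher ones. D17 stood at 0.403 times its WT level, D14 at 0.599 times and D3 at 0.656 times, while the D53 entries stood at 2.004 and 2.63 times. Of the 6 entries 5 reached a mean of 1 FPKM over the libraries, a level that 23397 genes of the table reached, and these genes are the background below. Of these 5 entries 3 had a log2 ratio below 0 and 2, both of D53, above 0, beside 51.7% and 48.3% of the background genes. D10, which did not reach that mean, had a log2 ratio below 0. On the scale used for counting, log2 of FPKM plus 1, only OS11G0104350 of D53 was at least 2-fold apart, on the higher side. Among the background genes 4.49% were 2-fold apart in either direction, made up of 3.24% higher in GRF7OE and 1.25% lower. D17 also passed 2-fold, as lower in GRF7OE, when 0.1 was the pseudocount. The median log2 ratio of the 6 entries was -0.39, beside -0.01 over the background genes, and it turned to 0.17 over the 4 entries that averaged 5 FPKM or more. At 1.5-fold, 4 entries were apart, D17, D14 and both of D53, and 14% of the background genes were.

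**Figure D1:**
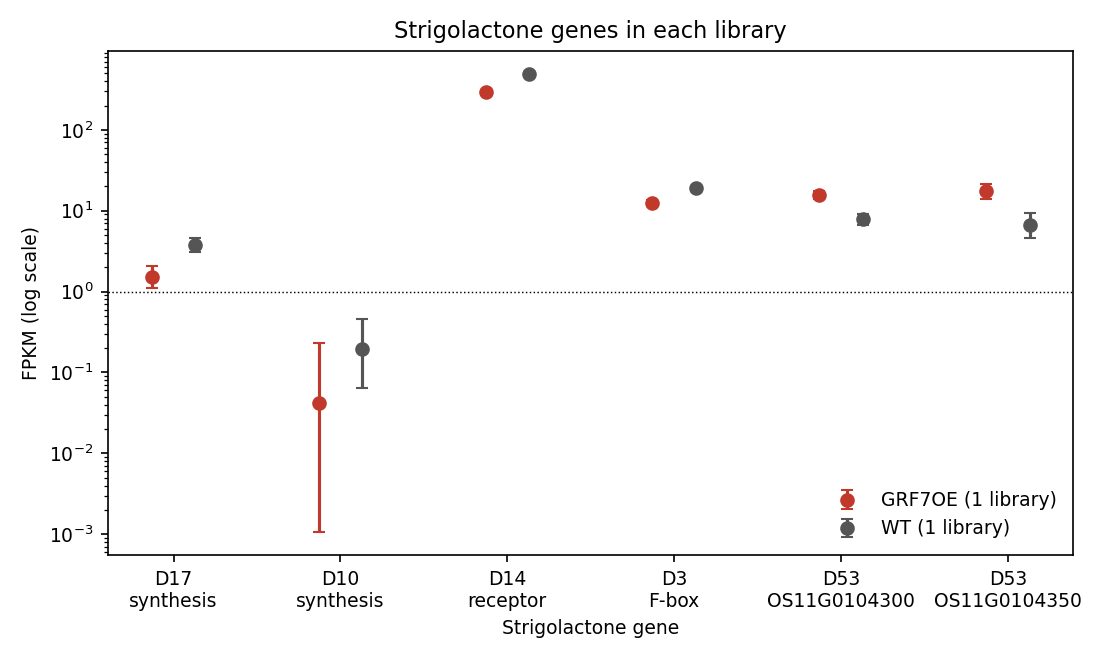
FPKM (log scale) of the 6 strigolactone gene entries in the GRF7OE library (red, left of each pair) and the WT library (grey, right of each pair), with 95% exact Poisson intervals of counting error; the dotted line marks 1 FPKM. D17, D10, D14 and D3 lie lower in GRF7OE and both D53 entries lie higher, with the D10 intervals overlapping.

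D17 encodes carotenoid cleavage dioxygenase 7, which cuts the isomerised carotene. It was at 1.53 FPKM in GRF7OE, on 43 reads, against 3.80 FPKM in WT, on 112 reads. The ratio of 0.403 [0.277 to 0.577] was lower than 1 beyond counting error, and 98.5% of the 23397 genes had a higher log2 ratio. With the pseudocount of 1 the log2 ratio was -0.92, just short of 2-fold, and without it -1.31.

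D10 encodes carotenoid cleavage dioxygenase 8, which acts after D17. It was barely detected, with 1 read in GRF7OE and 5 reads in WT, that is 0.0416 FPKM against 0.196 FPKM. Its ratio of 0.213 has an interval of 0.00450 to 1.90, so no difference was detectable at this depth. The table holds a second gene of this type, OS01G0566500, described as D10-like, which had 19 reads in GRF7OE and 7 in WT. Its ratio was 2.85 [1.15 to 8.01], at levels of 0.742 and 0.260 FPKM, both below 1 FPKM. The 2 genes of the D10 type had ratios on opposite sides of 1, and the interval of D10 overlapped that of OS01G0566500.

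Other genes of the synthesis route had few reads too. The 6 entries whose best Swiss-Prot match is the Arabidopsis P450 MAX1 all lay under 1 FPKM, and 3 of them had no read in either library, which allows up to 3 reads each. OS06G0565100, the one with most reads, was at 0.307 FPKM in GRF7OE and 0.866 FPKM in WT, on 6 and 18 reads, with a ratio of 0.354 [0.115 to 0.932]. OS02G0221900 had 5 reads in GRF7OE and 2 in WT, at a ratio of 2.62 with an interval of 0.429 to 27.5. OS11G0587000 is not of the MAX1 type and was listed as the synthesis gene D27, but the table leaves it without a name or description. It had 22 reads in GRF7OE and 23 in WT, a ratio of 1.03 [0.548 to 1.94].

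Upstream of the dioxygenases, the enzymes that build carotenoids were mostly close to WT. All 9 listed carotenoid genes reached a mean of 1 FPKM, with 4 log2 ratios above 0 and 5 below (3 and 6 after the libraries were set to an equal FPKM sum), none of them 2-fold apart, and a median of -0.04. The phytoene synthases, which open the carotenoid pathway, differed among themselves. PSY2 (OS12G0626400) was at 4.25 FPKM in GRF7OE and 1.83 FPKM in WT, a ratio of 2.32 [1.66 to 3.28] and a log2 ratio of 0.89 with the pseudocount of 1, which passed 2-fold with smaller pseudocounts. PSY3 (OS09G0555500) was at 7.84 FPKM against 11.3 FPKM, a ratio of 0.692 [0.572 to 0.836]. PSY1 (OS06G0729000), at 16.4 FPKM against 16.9 FPKM, was within counting error of its WT level. The desaturases and isomerases further along, from phytoene to lycopene, had log2 ratios between -0.24 (OS12G0405200, zeta-carotene isomerase) and 0.10 (OS07G0204900, zeta-carotene desaturase).

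D14, the strigolactone receptor and an alpha/beta hydrolase, was by far the most abundant of the studied genes. It stood at 291 FPKM in GRF7OE, on 5612 reads, and at 485 FPKM in WT, on 9936 reads. Of the 23397 genes 1.64% had a higher level in GRF7OE and 0.692% in WT. The ratio of 0.599 [0.580 to 0.619] was below that of 97.3% of genes by log2 ratio, at -0.74, and at this depth the interval is narrow. With the authors' normalised counts in place of FPKM the log2 ratio was -0.81. That lies below the counting interval, which runs from -0.79 to -0.69 as log2.

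The related hydrolases of the table had ratios outside the interval of D14. Besides D14 itself, 3 entries have D14 or D14L as their best Swiss-Prot match, and they were singled out after their values were seen. OS01G0595600, which matches D14 at 59% similarity, was at 104 FPKM in GRF7OE and 77.6 FPKM in WT, a ratio of 1.34 [1.25 to 1.45]. Its level was thus 35.9% of that of D14 in GRF7OE and 16.0% in WT, a change of 2.24-fold [2.07 to 2.44] in that proportion, which no scaling between libraries can alter. OS03G0437600, described as D14L, the receptor of the related karrikin pathway, was at 33.0 FPKM against 31.5 FPKM, with a ratio of 1.05 [0.936 to 1.17]. OS11G0384789 also matches D14L and was at 24.1 FPKM in GRF7OE and 21.7 FPKM in WT, a ratio of 1.11 [0.975 to 1.26]. As both match the same protein, how reads divide between them is uncertain.

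D3, the F-box protein that works with D14, was at 12.5 FPKM in GRF7OE, on 585 reads, and at 19.0 FPKM in WT, on 900 reads. The ratio was 0.656 [0.590 to 0.728] and the log2 ratio -0.57, with 94.9% of genes higher on that scale. By FPKM, D3 and D14 kept nearly the same proportion to each other, D3 being 4.28% of D14 in GRF7OE and 3.91% in WT. The interval of that change by FPKM, 0.980 to 1.22, includes 1. With the authors' normalised counts the log2 ratios lay further apart than by FPKM, at -0.61 for D3 and -0.81 for D14. No interval was computed for the proportion on those counts. D17 was lower relative to D14 as well, at 0.526% of its level in GRF7OE against 0.783% in WT, a change of 0.672 [0.461 to 0.966]. Other subunits of such ligases had ratios outside the interval of D3. Cullin-1 (OS01G0369000), the scaffold, was at 42.6 FPKM in GRF7OE and 46.5 FPKM in WT, a ratio of 0.917 [0.873 to 0.963], and an SKP1-like adaptor (OS11G0456300) was at 438 FPKM against 351 FPKM, a ratio of 1.25 [1.20 to 1.30].

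**Figure D2:**
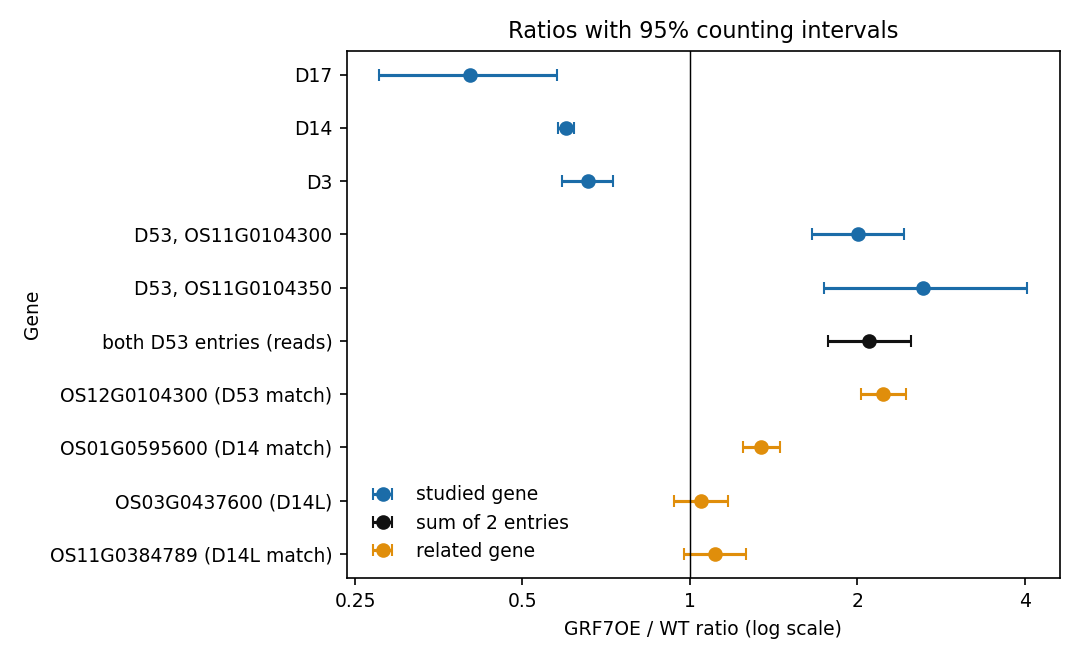
Ratio of GRF7OE to WT (log scale) with 95% exact counting intervals, from FPKM except for the sum of both D53 entries, which is from normalised counts. D17, D14 and D3 lie left of 1 and the D53 entries and OS12G0104300 right of 1; the entries matching D14L have intervals that include 1. D10, on 1 and 5 reads, is not drawn.

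D53 encodes a nuclear repressor related to ClpB-type ATPases. Its longer entry, OS11G0104300, is annotated with 435 residues. Whether either entry spans the whole gene was not tested, so the levels given for D53 are those of the entries. OS11G0104300 was at 15.8 FPKM in GRF7OE, on 331 reads, and at 7.90 FPKM in WT, on 168 reads. The ratio was 2.004 [1.66 to 2.43] and the log2 ratio with the pseudocount 0.92, just under 2-fold. The shorter entry, OS11G0104350, is annotated with 68 residues. It was at 17.5 FPKM in GRF7OE and 6.65 FPKM in WT, on 88 and 33 reads, with a ratio of 2.63 [1.74 to 4.05] and a log2 ratio of 1.27. Both carry the same MSU identifier, so they are not independent measurements of D53, and the ratio of the shorter to the longer entry, 1.10 in GRF7OE and 0.842 in WT, changed by 1.31-fold with an interval of 0.829 to 2.11. Summed over both entries, D53 had 419 reads in GRF7OE and 201 in WT, a ratio of normalised counts of 2.104 [1.77 to 2.50].

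One more entry had values like those of D53. OS12G0104300, an entry that the table leaves unnamed, has the D53 entry OS11G0104300 as its best protein match, at 98% similarity. It was at 19.9 FPKM in GRF7OE, on 1448 reads, and at 8.94 FPKM in WT, on 648 reads, with a ratio of 2.23 [2.03 to 2.45] and a log2 ratio of 1.07, which was 0.98 after the libraries were set to an equal FPKM sum. Relative to OS11G0104300 its level was 1.26-fold in GRF7OE and 1.13-fold in WT, a change of 1.11 [0.897 to 1.37] that includes 1. With copies this alike, reads of one can be counted for the other, so the part of each gene in these values is uncertain and was not tested. The 3 entries together had 1867 reads in GRF7OE and 849 in WT, a ratio of 2.22 [2.05 to 2.41]. If each read was counted once, that ratio does not depend on how reads were divided among them. Whether shared reads were counted once was not tested.

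The wider family of D53 had ratios on both sides of 1. The orthologous group of the longer D53 entry (KOG1051) has 17 entries, of which 14 reached a mean of 1 FPKM, with 7 log2 ratios above 0, 7 below and a median of 0.01, and with 4 above and 10 below after that scaling to an equal FPKM sum. OS12G0104300 and OS11G0104300 had the highest of those ratios, followed by the chloroplast chaperone ClpD1 (OS02G0526400) at 0.60. The lowest was OS02G0537800, at -1.02 and 1.44 FPKM against 3.94 FPKM. OS08G0250900, a gene described as heat shock protein-related and annotated with the response to karrikin, was at 24.5 FPKM in GRF7OE and 23.1 FPKM in WT, a ratio of 1.06 [0.986 to 1.14].

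The order of the levels differed between the libraries. In GRF7OE it ran from D14 to OS11G0104350, OS11G0104300, D3, D17 and D10, and in WT from D14 to D3, OS11G0104300, OS11G0104350, D17 and D10. The D53 entries did not differ from each other beyond their Poisson intervals in either library, at 14.2 to 17.6 FPKM for the longer and 14.01 to 21.5 FPKM for the shorter in GRF7OE. D3, at 11.5 to 13.5 FPKM there, lay below both. In WT D3, at 17.8 to 20.3 FPKM, lay above both D53 entries, whose intervals were 6.75 to 9.19 and 4.58 to 9.34 FPKM. The longer D53 entry was thus at 1.27 times the level of D3 in GRF7OE and at 0.416 times in WT, a change of 3.06-fold [2.46 to 3.81]. Relative to D14 it was at 5.44% in GRF7OE and 1.63% in WT, a change of 3.35-fold [2.76 to 4.06].

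**Figure D3:**
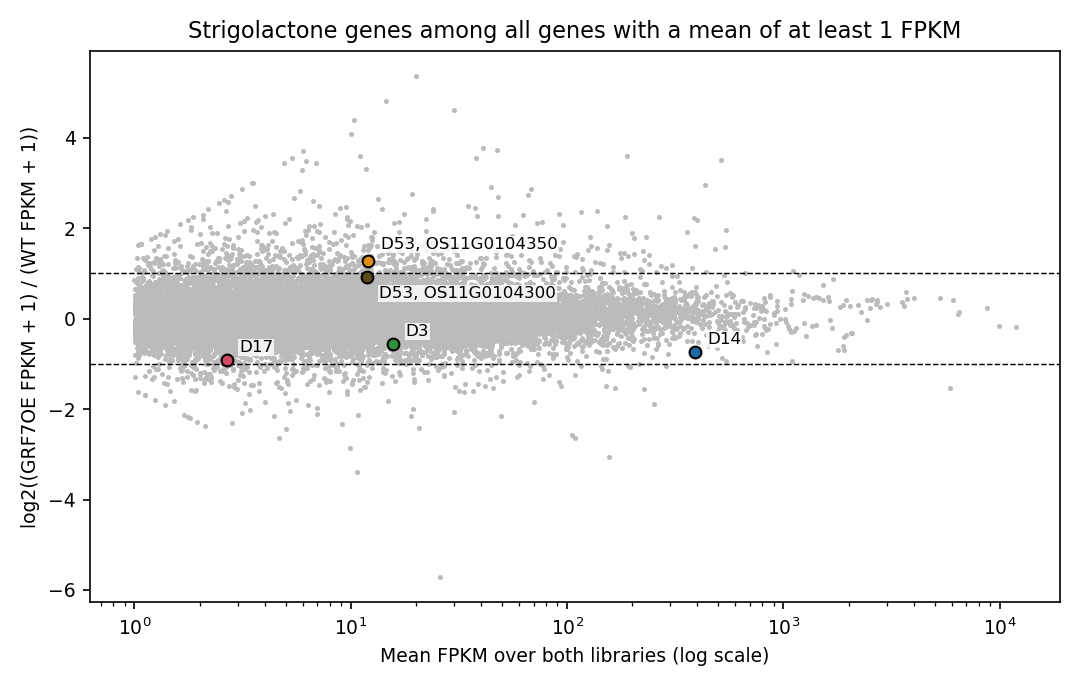
Log2 ratio of GRF7OE to WT (FPKM plus 1) against mean FPKM (log scale) for the 23397 genes that averaged 1 FPKM or more (grey), with the studied genes that reached it marked; dashed lines mark 2-fold. D17, D14 and D3 lie below 0 and both D53 entries above it, with OS11G0104350 alone past a dashed line.

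Of 25 listed pathway genes outside the 6 entries whose description fits, from carotenoid enzymes to the partners and targets of D53, 18 reached a mean of 1 FPKM. Of those 2 were at least 2-fold higher, OS12G0104300 and SPL14, and none was 2-fold lower. That is 11.1%, beside 4.49% of the background genes in either direction. With both libraries scaled to the same FPKM sum SPL14 alone passed, or 5.56%, and of 23296 genes 612 were higher and 348 lower. The log2 ratios of the 18 split evenly, 9 above 0 and 9 below, but 6 and 12 after that scaling. Their median was -0.02. SPL14 (OS08G0509600) was at 25.3 FPKM in GRF7OE and 10.04 FPKM in WT, on 663 and 271 reads, a ratio of 2.52 [2.19 to 2.92]. The TOPLESS-type corepressors were abundant, and none of the 3 was 1.5-fold apart. OS01G0254100 was at 33.4 FPKM against 44.7 FPKM, a ratio of 0.746 [0.714 to 0.780], OS08G0162100 at 53.3 FPKM against 51.2 FPKM and OS03G0254700 at 79.4 FPKM against 83.9 FPKM. The TCP factor OsTB1 (OS03G0706500), a repressor of bud outgrowth, had 4 reads in GRF7OE and 12 in WT, with a ratio of 0.349 and an interval of 0.0821 to 1.15. CKX9 (OS05G0374200), a cytokinin oxidase known to respond to strigolactone in rice, had 33 reads against 30, with a ratio of 1.07 [0.635 to 1.82].

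**Figure D4:**
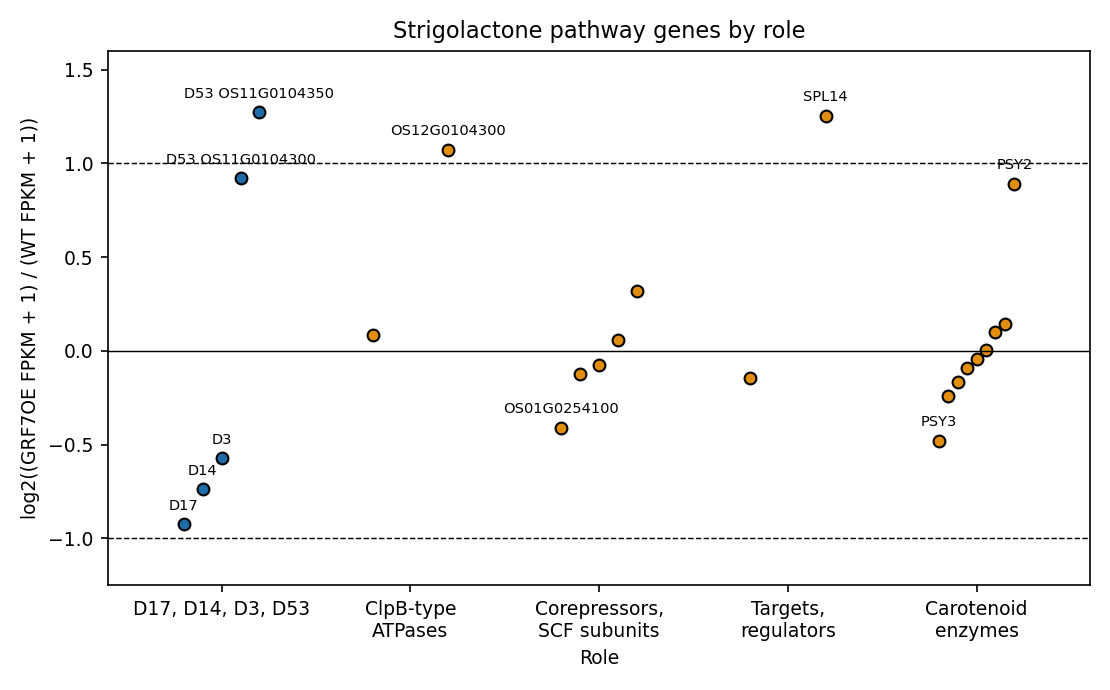
Log2 ratio of GRF7OE to WT (FPKM plus 1) of the strigolactone genes that averaged 1 FPKM or more (blue) and of other listed pathway genes at that level (orange), grouped by role; each point is 1 gene entry and dashed lines mark 2-fold. OS12G0104300 and SPL14 lie above the upper line, beside the D53 entry OS11G0104350.

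In the authors' deposited table none of the 6 entries is called significant, and 1.63% of the 25818 genes with a status of OK are. The call needs an FDR up to 0.05 together with a log2 ratio of 1 or more in size, and its p-values compare these libraries, not the conditions. The deposited FDR is 0.244 for OS11G0104300, 0.323 for OS11G0104350, 0.311 for D17, 0.380 for D14 and 0.864 for D3, and D10 has a status of NOTEST. Of the 18 other pathway genes at 1 FPKM or more, the authors' deposited table calls 2 significant, SPL14 with an FDR of 0.00938 and OS12G0104300 with one of 0.0329.

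As the RNA came from seedlings, fewer cells of a type and less RNA per cell cannot be told apart. Leaf markers were abundant, as 5 of 5 lay above 400 FPKM in both libraries, and summed to 16923 FPKM in GRF7OE and 14231 FPKM in WT. Of 5 root markers 3 reached a mean of 1 FPKM, with sums over the 5 of 14.5 FPKM in GRF7OE and 19.9 FPKM in WT. Among those 3, RCc3 was at 49 reads in GRF7OE and 100 in WT, a ratio of 0.498 [0.346 to 0.708], while the intervals of LSI1 (ratio 0.946) and IRT1 (ratio 1.10) include 1. Meristem markers summed to 12.5 FPKM in GRF7OE and 26.0 FPKM in WT over 4 genes, of which OSH15 and OSH71 were at least 2-fold lower. The intervals of OSH1, with a ratio of 0.803 [0.622 to 1.04], and OSH43, with one of 0.478 [0.149 to 1.35], include 1. Of 6 flower markers 1 reached a mean of 1 FPKM, and MADS7 and MADS8 were at 0 in both libraries. MADS1, below that mean, had 24 reads in GRF7OE and 3 in WT, a ratio of 7.90 [2.40 to 41.0]. The other detected flower markers had fewer reads in GRF7OE than in WT. MADS3 had 37 against 48, MADS6 had 1 against 7 and MADS58 had 0 against 2. The intervals of MADS3 (ratio 0.755) and MADS6 (ratio 0.144) include 1. Over the 6 genes the flower markers summed to 2.18 FPKM in GRF7OE and 2.09 FPKM in WT. The part of organ make-up in the ratios of D17, D14, D3 and D53 was not tested. OsGRF7 itself was at 70.7 FPKM in GRF7OE against 5.10 FPKM in WT, higher in the library labelled as overexpressing it.

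Genes whose levels were nearest to those of D14 and of OS11G0104350 were sought by the distance between log2 of FPKM plus 1 in the 2 libraries. Nearest to D14 were OS03G0791800, a ubiquitin-conjugating enzyme at 299 FPKM in GRF7OE and 471 FPKM in WT, OS03G0648450, with no informative description, and OS09G0472900, an EG45-like domain protein. Within a distance of 0.5 lay 26 genes. Nearest to OS11G0104350 were OS09G0397800, OS04G0401100 and OS09G0460700, the first at 17.2 FPKM against 6.64 FPKM, and 192 genes lay within 0.5. Over only 2 libraries such likeness is a match of 2 values.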

How the data were processed

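Messenger levels were measured by RNA-seq in 1 GRF7OE and 1 WT library. Bowtie and Cuffdiff were used, per the submitters' processing notes, and the sources used here name neither a version nor a genome build. The authors deposited 1 table with FPKM per gene and with a signal column that holds normalised read counts, with a step per read of 0.963 (GRF7OE) or 0.954 (WT). Of the values above 0 and below 10000, 99.3% in GRF7OE and 99.2% in WT were whole multiples of that step, within 0.05, and dividing by it gave the reads used here. The deposited p-value and FDR columns are the authors' comparison of the 2 libraries. The authors deposited log2 ratios in both directions, and a direction column whose header names an RNAi line where the labels name overexpression, so directions were taken from FPKM.

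The measure was log2((GRF7OE FPKM + 1) / (WT FPKM + 1)), counted at 2-fold or more for genes that averaged 1 FPKM or more, and low genes are understated by the pseudocount. Ratios in the text are plain FPKM ratios with 95% Clopper-Pearson intervals from reads, levels have exact Poisson intervals, and proportions between genes have conditional exact odds-ratio intervals. All cover counting error only. A count of 0 allows up to 3 reads. The members, lists and rules were chosen with earlier results of these data known. Of 29 pathway identifiers listed, 25 fit the table's descriptions and 2 did not (1 undescribed, and 1 that the table describes as a zinc finger protein where D14L was meant). The last 2 matched no entry of the table, so they were not analysed here. The D14L entry used was found by its description after the values were seen, as were the family entries by orthologous group and best match. Named genes were all members, listed genes past 2-fold or of each role, and the 3 nearest genes. The counting and interval steps were tested on simulated reads that held counting error only, which cannot show how libraries of one group would differ. Tools were pandas 2.3.3, SciPy 1.17.1, NumPy 2.4.6 and Matplotlib 3.10.9 under Python 3.11.15.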

Additional observations from a re-analysis of the deposited data

How the results depend on the processing

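All 6 entries kept the sign of their log2 ratio under the 6 settings tried for each, which were other pseudocounts, no pseudocount, both scalings and the normalised counts. D14 ranged from -0.83 to -0.72 and D53 OS11G0104300 from 0.83 to 1.003. The number of entries at 2-fold or more was 1, and came to 2 with a pseudocount of 0.1, with one of 0.5 and with the normalised count columns, where D17 passed on the lower side. It was 3 as a plain FPKM ratio among entries with a mean of at least 1 FPKM, and 4 with D10, which lies under that mean. It was 4 at a fold of 1.5, beside 14% of the background genes. By the authors' deposited call it was 0, beside 1.63% of the genes with a status of OK. The median of the 6 was -0.67 with a pseudocount of 0.1, -0.71 with normalised counts and -0.57 over the 5 with a mean of at least 1 FPKM. It turned to 0.17 over the 4 with a mean of at least 5 FPKM once D17 and D10 were left out. The other pathway genes at 2-fold came to 1 with both libraries scaled to the same FPKM sum, as OS12G0104300 then lay at 0.98. That is 5.56% of the 18, and of 23296 genes 612 were then higher and 348 lower. The number was 3 with a pseudocount of 0.1 or 0.5, with the normalised counts and at a fold of 1.5, where PSY2 passed as well. Such a number is 16.7% of the 18, beside 14% of the background genes at a fold of 1.5. The background counts at 2-fold for the other settings are given next but one. The ratio of the summed D53 entries, 2.104, was 2.69 for OS11G0104350 on its own. As the background for all these counts at 2-fold, the settings of the report gave 758 higher and 293 lower of 23397 genes. Of the same 23397 genes the pseudocount of 0.1 gave 1147 and 512, that of 0.5 gave 943 and 376, and no pseudocount 1221 and 547. The normalised counts gave 1109 and 505 of 23397, and a mean of 5 FPKM or more 481 and 165 of 16447. No paired analysis was possible because each group is 1 library, and for the same reason no replicate could be left out. Depth limits the entries on few reads, among them D10, the MAX1 type entries and OsTB1.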
